A study of Mus musculus with 4 samples.

Results

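The genes of the mouse major histocompatibility complex (MHC) and of antigen presentation were followed in T-helper 17 (Th17) cells, CD4 T cells known for secreting interleukin 17. Members were the 34 protein-coding genes whose GENCODE symbol begins with H2-, the mouse MHC prefix, plus 12 named partners: B2m, Tap1, Tap2, Tapbp, Tapbpl, Nlrc5, Ciita, Cd74, Erap1, Rfx5, Rfxap and Rfxank. They made 46 of the 50600 genes in the files. RNA of primary Th17 cells of the C57BL/6NJ mouse strain was sequenced in 4 libraries of 1 group, numbered as biological replicates 1 to 4. No treatment, allele or control group is named, the age is given as unknown, the sex was not collected, and a protocol for differentiating CD4+ T cells is linked. The library names carry the marks 72 hr and sorted. No label says that separate animals or cultures stand behind the libraries, and 1 donor label covers all 4, so a p-value here speaks of the spread among these samples alone, which may be technical.

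MHC class I molecules hold a heavy chain, beta-2-microglobulin and a short peptide, and show pieces of the cell's own proteins to CD8 T cells. MHC class II molecules hold an alpha and a beta chain and show peptides from engulfed proteins to CD4 T cells; B cells, dendritic cells and macrophages carry them, and resting mouse T cells are known for carrying class I with little or no class II. NLRC5 switches on class I genes and CIITA switches on class II genes, and both act on promoters that the RFX complex marks.

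Total counts were 34542693, 23673174, 9382661 and 28629187 in replicates 1 to 4, and the members took between 0.251% and 0.313% of them. Levels are given in TPM (the usual length-corrected share of transcripts), computed from the deposited counts and exonic lengths. For a gene with no count, the floor is 3 counts per library, which for a transcript of 1 kb is between 0.286 TPM in replicate 1 and 1.05 TPM in replicate 3. Such floors and intervals cover counting error only. Th17 cytokine genes were high in every library, with Il17f at 11651 TPM and Il17a at 7787 TPM in the mean, and all 7 T cell markers and all 6 Th17 markers were above 1 TPM throughout.

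Class I heavy-chain genes are known to carry paired binding stretches upstream of their start. The promoters of some chosen members are shown to let their letters be read beside the levels. RefSeq promoter sequences of build GRCm38.p6 were matched for 37 of the 46 members, and the 200 bases before the first listed start were searched on both strands. The motifs searched were GGGATTCCC (a kappaB-type site), TTTCACTTC (an interferon response type), TGACG (a CREB-type site, part of the X2 box) and CCAAT (the Y box, read as ATTGG on the other strand). Capitals mark these matches. All lines run 5′ to 3′ on the gene's own strand, and the last base is the one before the start. H2-K1 was read from chr17:34000348-34000547 (minus strand), H2-D1 from chr17:35262894-35263093 (plus), H2-Q4 from chr17:35379417-35379616 (plus) and H2-Q7 from chr17:35438955-35439154 (plus). H2-Q10 was read from chr17:35469889-35470088 (plus), B2m from chr2:122147487-122147686 (plus), H2-Aa from chr17:34287824-34288023 (minus) and H2-Eb1 from chr17:34305667-34305866 (plus).
H2-K1: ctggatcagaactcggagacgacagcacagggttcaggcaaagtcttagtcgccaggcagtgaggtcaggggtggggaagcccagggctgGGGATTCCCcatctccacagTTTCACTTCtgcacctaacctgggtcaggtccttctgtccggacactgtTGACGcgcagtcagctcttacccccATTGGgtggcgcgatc
H2-D1: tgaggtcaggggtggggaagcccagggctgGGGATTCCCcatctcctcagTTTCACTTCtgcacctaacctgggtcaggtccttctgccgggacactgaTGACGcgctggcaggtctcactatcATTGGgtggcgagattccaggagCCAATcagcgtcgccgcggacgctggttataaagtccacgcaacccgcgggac
H2-Q4: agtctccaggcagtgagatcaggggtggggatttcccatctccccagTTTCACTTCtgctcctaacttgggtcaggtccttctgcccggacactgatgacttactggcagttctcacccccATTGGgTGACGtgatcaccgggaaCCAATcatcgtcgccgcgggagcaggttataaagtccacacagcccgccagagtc
H2-Q7: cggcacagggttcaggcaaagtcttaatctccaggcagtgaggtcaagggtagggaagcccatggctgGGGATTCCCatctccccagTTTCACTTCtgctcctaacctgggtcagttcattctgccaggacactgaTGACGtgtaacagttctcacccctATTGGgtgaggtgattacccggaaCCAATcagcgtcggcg
H2-Q10: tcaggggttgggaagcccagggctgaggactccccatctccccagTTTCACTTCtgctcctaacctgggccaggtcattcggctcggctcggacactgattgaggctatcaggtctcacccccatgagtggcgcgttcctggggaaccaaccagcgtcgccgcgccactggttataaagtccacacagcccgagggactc
B2m: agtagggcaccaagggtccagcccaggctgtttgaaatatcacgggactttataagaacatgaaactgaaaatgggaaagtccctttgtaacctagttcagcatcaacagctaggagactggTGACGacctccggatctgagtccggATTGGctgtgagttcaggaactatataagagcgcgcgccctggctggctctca
H2-Aa: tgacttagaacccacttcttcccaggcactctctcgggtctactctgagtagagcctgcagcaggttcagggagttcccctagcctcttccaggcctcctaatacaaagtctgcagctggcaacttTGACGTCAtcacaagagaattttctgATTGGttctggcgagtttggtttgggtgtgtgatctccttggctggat
H2-Eb1: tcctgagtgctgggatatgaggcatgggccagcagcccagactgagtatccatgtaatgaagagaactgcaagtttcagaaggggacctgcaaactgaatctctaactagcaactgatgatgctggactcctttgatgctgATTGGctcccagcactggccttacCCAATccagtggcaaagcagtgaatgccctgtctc

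The interferon-type letters were in the windows of 7 of the 37 matched members, and all 7 were class I heavy chains: H2-K1, H2-D1, H2-Q4, H2-Q6, H2-Q7, H2-Q10 and H2-M3. Of all 32851 windows of the table, which lists several starts for some genes, 0.307% held them. The kappaB-type letters were in 4 matched members, H2-K1, H2-D1, H2-Q6 and H2-Q7, and in 0.213% of all windows. From the first base of the kappaB-type match to that of the interferon-type match was 20 bases in H2-K1, H2-D1 and H2-Q6 and 19 bases in H2-Q7. The TGACG letters then followed 49 bases after the interferon-type match in H2-K1, H2-D1 and H2-Q7, 80 bases after it in H2-Q4 and 55 bases after it in H2-M3. Lined up on the interferon-type match without gaps, 73 of 80 bases were the same in H2-D1 as in H2-K1, 68 in H2-Q4, 63 each in H2-Q6 and H2-Q7, 53 in H2-Q10 and 28 in H2-M3. The windows of H2-K1, H2-D1 and the Q genes resemble each other along their length, so they are not independent. TGACG was found in 13 matched members and in 15.7% of all windows, and CCAAT in 31 matched members and in 29.3% of all windows. In H2-Aa the TGACG letters lie on both strands and overlap. These matches describe letters in a window, and no binding was measured.

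Of the 46 members, 25 stood at 1 TPM or more in every library, 32 had at least 1 count and 14 had none. Over all 21764 protein-coding genes the share at 1 TPM or more in every library was 47.6%. The median member level was 3.96 ± 0.803 TPM, beside 0.804 ± 0.0844 TPM for all protein-coding genes (SD, n = 4). Among genes with a count, the medians were 19.5 ± 3.61 TPM for the 32 members and 14.9 ± 0.401 TPM for 14605 protein-coding genes (SD, n = 4). The members spanned from rank 36 among protein-coding genes, B2m, to no counts at all.

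**Figure D1:**
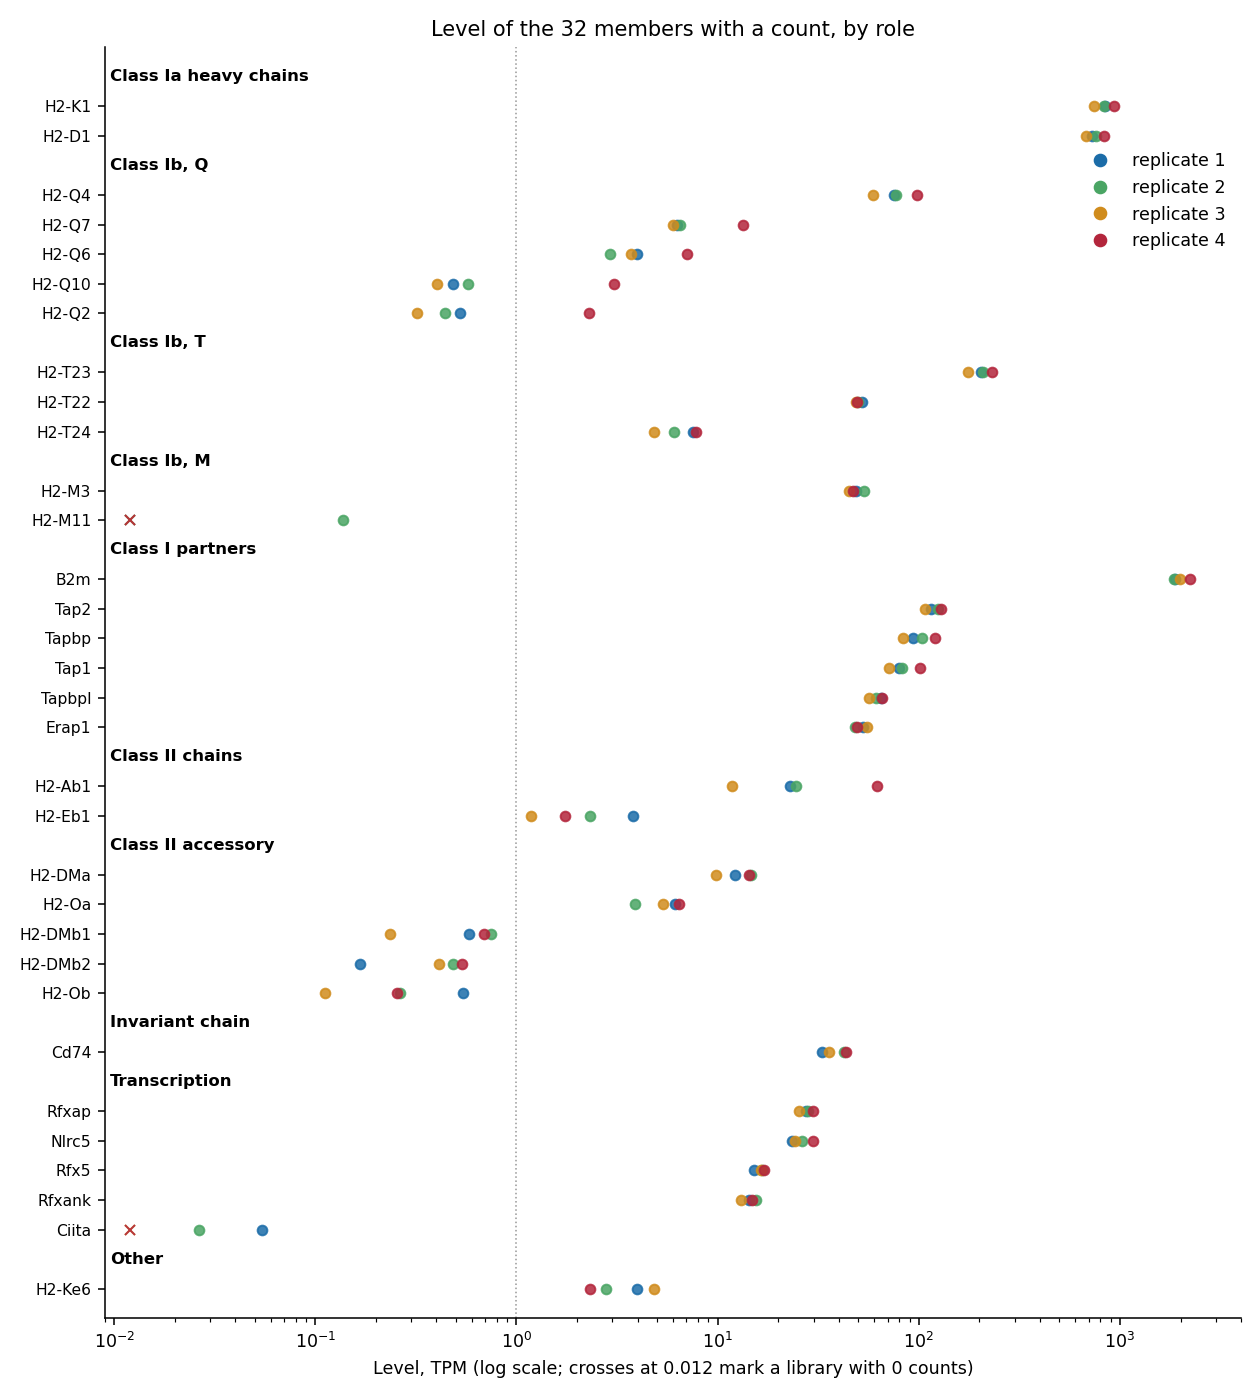
TPM (horizontal log axis) of the 32 members with a count, by role, with 1 point per library coloured by replicate. Crosses mark libraries with 0 counts and may overlap, and the dotted line is 1 TPM. B2m, H2-K1 and H2-D1 lie to the right with their points close together, while H2-Ab1, H2-Q10, H2-Q2 and H2-Q7 have replicate 4 apart from the other 3 libraries.

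Class I heavy chains were led by the classical, peptide-presenting pair, H2-D1 and H2-K1. H2-D1 (ENSMUSG00000073411.11, mm10 chr17:35262730-35267499) had 729, 761, 677 and 832 TPM in replicates 1 to 4, a mean of 750 ± 64.9 TPM (SD, n = 4). H2-K1 (ENSMUSG00000061232.15, chr17:33996017-34000333) had 839, 835, 746 and 930 TPM, a mean of 837 ± 75.2 TPM (SD, n = 4). Both had their lowest value in replicate 3 and their highest in replicate 4, and their ranges overlapped. Within each library H2-D1 was nevertheless below H2-K1, with a mean difference of -0.16 ± 0.03 on the log2(TPM + 1) scale (SD, n = 4) and the same sign in 4 of 4 libraries. Together they made 79.8% ± 0.547 (SD, n = 4) of the summed level of the 24 class I heavy chains.

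The same kind of comparison was made for 12 pairs of genes. The smallest p that the two-sided exact sign-flip permutation test over 4 libraries can give is 0.13 when rounded, so no pair could pass 0.05. The 11 pairs with the same sign in 4 of 4 libraries had that smallest exact p, which, adjusted unrounded by Benjamini-Hochberg over the 12 pairs, was 0.136, and the remaining pair, Cd74 minus H2-Ab1, had an exact p of 0.25. Sizes and their spread are therefore given in place of calls.

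Beta-2-microglobulin, the light chain that every class I heavy chain needs, is encoded by B2m (ENSMUSG00000060802.8, chr2:122147686-122153083). B2m had 1885, 1856, 1981 and 2230 TPM, with a mean of 1988 ± 170 TPM (SD, n = 4). It exceeded H2-K1 by 1.25 ± 0.12 and H2-D1 by 1.41 ± 0.11 on the log2(TPM + 1) scale (SD, n = 4), in 4 of 4 libraries each. In CPM, with no length correction, these differences turned to -0.35 and -0.18, since B2m is the shorter gene. The summed level of the 24 heavy chains was 1967, 2001, 1765 and 2222 TPM, a mean of 1989 ± 187 TPM (SD, n = 4). B2m was thus 0.958, 0.927, 1.12 and 1.00 times the summed heavy chains in replicates 1 to 4. In counts B2m had 17010, 11562, 4857 and 16810, against 54095, 37959, 13185 and 51192 for the heavy chains. The ratio therefore depends on the lengths used, which pool all annotated exons of a gene.

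**Figure D2:**
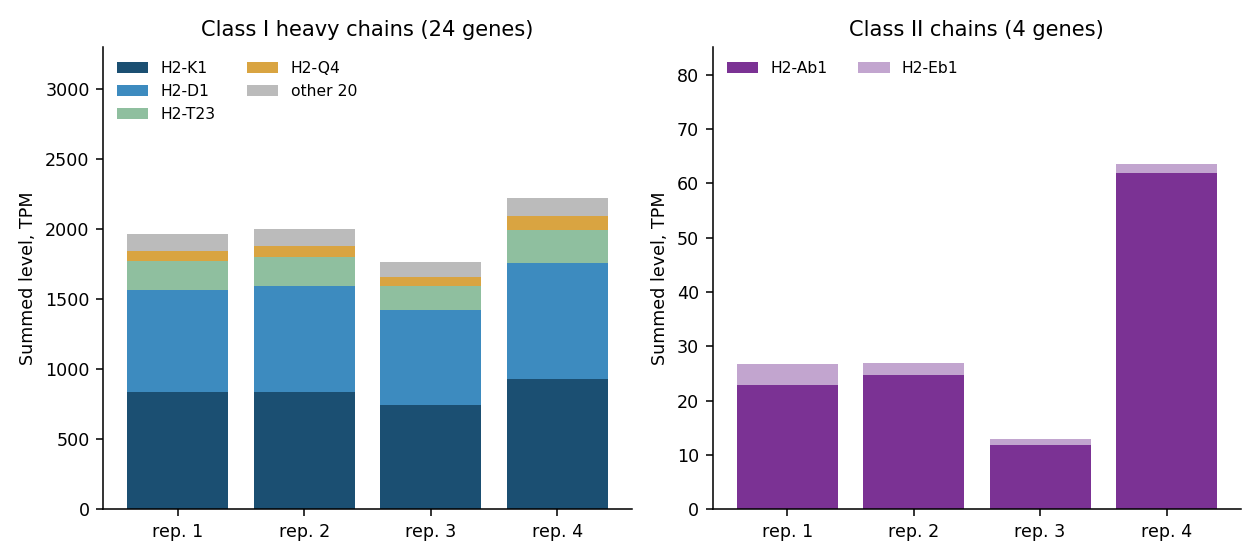
Summed TPM per library of the 24 class I heavy chains (left) and the 4 class II chains (right), with the leading genes stacked; the vertical axes differ in scale. The class I stack lies between 1765 and 2222 TPM and has the same make-up in each library, while the class II stack lies between 12.97 and 63.6 TPM and is mostly H2-Ab1.

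Among the non-classical (class Ib) heavy chains of the T region, H2-T23 encodes Qa-1, which presents a leader peptide of other class I chains to inhibitory natural killer receptors. H2-T23 (chr17:36029773-36032855) had 205, 209, 175 and 232 TPM, a mean of 205 ± 23.5 TPM (SD, n = 4), and made 10.29% ± 0.259 (SD, n = 4) of the class I sum. It was the highest class Ib gene in each library. H2-T22, a ligand of some gamma-delta T cell receptors, had 52.0, 50.1, 48.5 and 49.5 TPM, a mean of 50.04 ± 1.49 TPM (SD, n = 4). Its coefficient of variation, 2.98% in TPM, was the lowest of the 32 members with a count. H2-T24 averaged 6.57 ± 1.401 TPM (SD, n = 4), and H2-T3, which encodes the thymus leukaemia antigen, had 0 counts.

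The Q region genes covered a wide range, and the 5 with a count were highest in replicate 4. H2-Q4 (chr17:35379617-35385290) had 75.2, 77.3, 59.1 and 98.0 TPM, a mean of 77.4 ± 15.96 TPM (SD, n = 4). H2-Q7, which encodes the lipid-anchored Qa-2 antigen, had 6.30, 6.47, 6.01 and 13.4 TPM. In H2-Q7 the first 3 libraries lay close together and replicate 4 stood at 2.23 times the lowest. H2-Q6, its neighbour on the chromosome, averaged 4.41 ± 1.82 TPM (SD, n = 4), with replicate 4 highest at 7.06 TPM. H2-Q10, known as a secreted chain made in the liver, had 0.482, 0.572, 0.403 and 3.07 TPM, and H2-Q2 had 0.524, 0.443, 0.322 and 2.30 TPM. Without replicate 4 the mean of H2-Q10 was 0.486 TPM against 1.13 TPM with it, and that of H2-Q2 was 0.430 TPM against 0.898 TPM. H2-Q1 had 0 counts. H2-T23 exceeded H2-Q7 by 4.57 ± 0.38 on the log2(TPM + 1) scale (SD, n = 4), in 4 of 4 libraries.

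Of the 12 M region genes, H2-M3 alone was above 1 TPM. H2-M3 presents peptides that begin with N-formyl methionine, as bacterial proteins do, and had 48.7, 53.5, 44.9 and 46.8 TPM, a mean of 48.5 ± 3.68 TPM (SD, n = 4). H2-M11 had 1 count in all. The other 10, H2-M1, H2-M2, H2-M5, H2-M9 and the 6 H2-M10 genes, of which the H2-M10 family is known from the vomeronasal organ, had 0 counts in every library. Their floors ran from 0.106 TPM for H2-M5 in replicate 1 to 0.996 TPM for H2-M1 in replicate 3. In all, 9 of the 24 class I heavy chains were at 1 TPM or more in every library and 12 had no count.

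Peptides reach class I molecules in the endoplasmic reticulum through the transporter that TAP1 and TAP2 form, and all 6 class I partners were at 1 TPM or more in every library. Tap1 (chr17:34187553-34197225) had 79.7, 82.6, 70.7 and 101 TPM, and its neighbour Tap2 (chr17:34203527-34216321) had 115, 124, 107 and 128 TPM. Tap1 was below Tap2 in every library, by a mean difference of -0.51 ± 0.12 on the log2(TPM + 1) scale (SD, n = 4). In CPM, with no length correction, the mean difference was 0.023, so that order depends on the length correction. Tapbp, or tapasin, which holds class I beside the transporter, had 93.4, 104, 83.6 and 120 TPM. Tapbpl, the related peptide editor TAPBPR, had 64.9, 61.3, 56.2 and 65.5 TPM, and Tapbp exceeded it by 0.67 ± 0.16 on the log2(TPM + 1) scale (SD, n = 4). Erap1, which trims peptides to the length that class I binds, had 53.1, 48.4, 55.1 and 49.1 TPM. It was highest in replicate 3, unlike the other 5 partners, which were highest in replicate 4.

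Other genes of the class I route, taken from a list of 11, were at 1 TPM or more in every library for 9 members. The endoplasmic reticulum chaperones led: Calr, or calreticulin, averaged 1065 ± 67.5 TPM, Pdia3 721 ± 37.5 TPM and Canx, or calnexin, 477 ± 27.3 TPM (SD, n = 4 each). Psmb8, an immunoproteasome subunit, averaged 256 ± 13.7 TPM, and Psme2, a part of the proteasome activator PA28, averaged 235 ± 13.9 TPM (SD, n = 4 each). At the low end, Cd1d1, which presents lipids to natural killer T cells, averaged 1.29 ± 0.294 TPM (SD, n = 4), and Cd1d2 had 1 count. In the test of spread between libraries, described below, none of the 10 genes of the list that passed its filter was called. Over all genes tested, 1 of 12156 was called, a background of 0.00823%.

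Class II chains were lower, with 4 genes summing to 26.7, 27.0, 12.97 and 63.6 TPM, a mean of 32.5 ± 21.7 TPM (SD, n = 4). The class I heavy-chain sum was 73.8, 74.2, 136 and 35.0 times as high in replicates 1 to 4. H2-Ab1, the beta chain of the I-A molecule (ENSMUSG00000073421.5, chr17:34263209-34269418), had 22.9, 24.6, 11.8 and 61.8 TPM. Replicate 4 stood 5.24 times above replicate 3, and without replicate 4 the mean was 19.8 ± 6.96 TPM (SD, n = 3) in place of 30.3 ± 21.8 TPM (SD, n = 4). It made 91.3% ± 4.69 (SD, n = 4) of the class II sum.

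The alpha chain that pairs with it in the I-A molecule, H2-Aa (ENSMUSG00000036594.14, chr17:34282744-34287827), had 0 counts in each of the 4 libraries. H2-Ab1 had 1627 counts. Per base of exon H2-Ab1 was at least 621-fold higher than H2-Aa, taking 3 counts over the 4 libraries as the floor for H2-Aa. The genes lie on opposite strands with 13325 bases between them. No other gene of the files covered an exon of either on its own strand, and every stretch of 100 bases in the transcripts of either was found in no other annotated gene; at 50 bases the share was 100% in H2-Ab1 and 99.5% in H2-Aa. What lies behind the difference was not tested. H2-Eb1, the beta chain of I-E, had 47, 20, 4 and 18 counts, or 2.26 ± 1.12 TPM (SD, n = 4), and was highest in replicate 1. H2-Eb2 had 0 counts. C57BL/6 mice are known to make no I-E alpha chain, and its gene stands in the annotation as the pseudogene H2-Ea-ps, at 0 counts.

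Cd74, the invariant chain that fills the class II groove until a peptide is loaded, had 32.9, 42.7, 35.6 and 43.7 TPM, a mean of 38.7 ± 5.29 TPM (SD, n = 4). Its mean difference from H2-Ab1 was 0.58 ± 0.83 on the log2(TPM + 1) scale (SD, n = 4), positive in 3 of 4 libraries and negative in replicate 4. Without replicate 3 it was 0.26 and without replicate 4 it was 0.93, so which gene was higher was within the spread between libraries. H2-DMa and H2-DMb1 encode the chains of H2-DM, which exchanges the invariant chain's fragment for peptide. H2-DMa had 12.3, 14.6, 9.83 and 14.3 TPM, while H2-DMb1 had 9, 8, 1 and 9 counts and averaged 0.562 ± 0.228 TPM (SD, n = 4). H2-DMa exceeded H2-DMb1 by 3.13 ± 0.05 on the log2(TPM + 1) scale (SD, n = 4), in 4 of 4 libraries. The 1 TPM added before the log shrinks this difference and its spread, since H2-DMb1 lay below 1 TPM. With 0.1 TPM added the mean difference was 4.35. Per base of exon H2-DMa was 21.3-fold higher, with a 95% exact binomial interval of 14.5 to 32.6. The TPM ratios were 21.2, 19.7, 41.6 and 20.6 in replicates 1 to 4, and in replicate 3 H2-DMb1 rested on 1 count.

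The second H2-DM beta gene, H2-DMb2, had 19 counts. H2-O, which restrains H2-DM, showed the same kind of imbalance: its alpha chain gene H2-Oa averaged 5.45 ± 1.14 TPM (SD, n = 4), and its beta chain gene H2-Ob had 32 counts and 0.293 ± 0.181 TPM (SD, n = 4). Of a list of 8 other class II route genes, 7 were at 1 TPM or more in every library. The 5 highest were the protease genes Ctsb, at 197 ± 8.65 TPM, Ctsd, at 118 ± 7.09 TPM, and Ctss, at 77.5 ± 5.11 TPM, the thiol reductase gene Ifi30, at 124 ± 8.18 TPM, and Sppl2a, which cuts the invariant chain's remnant, at 46.2 ± 1.21 TPM (SD, n = 4 each). March1, whose product marks class II for breakdown, had 0 counts.

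The regulators also differed. Nlrc5 (chr8:94434356-94527272) had 23.3, 26.2, 24.2 and 29.9 TPM, a mean of 25.9 ± 2.92 TPM (SD, n = 4). Ciita (chr16:10488178-10527564) had 3, 1, 0 and 0 counts, 4 in all, with a 95% exact Poisson interval of 1.09 to 10.24. Per base of exon Nlrc5 was 1005-fold higher than Ciita, with a 95% exact binomial interval of 392 to 3690. The 3 RFX subunits were present in every library. Rfxap had 27.6, 28.2, 25.4 and 29.9 TPM, Rfxank had 14.4, 15.6, 13.1 and 14.9 TPM, and Rfx5 had 15.2, 16.5, 16.5 and 17.0 TPM. Rfxap exceeded Rfx5 by 0.73 ± 0.10, and Rfxank differed from Rfx5 by -0.16 ± 0.11 on the log2(TPM + 1) scale (SD, n = 4 each). In CPM the difference between Rfxap and Rfx5 turned to -0.50.

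Of 13 further factors that act on these genes or on interferon signalling, 12 were at 1 TPM or more in every library. Among the highest were Atf1 at 97.4 ± 8.33 TPM, the Y-box subunit gene Nfyb at 68.3 ± 1.48 TPM, Ifngr1 at 45.6 ± 9.38 TPM and Nfyc at 35.4 ± 3.24 TPM (SD, n = 4 each). Ifng, the gene of interferon gamma, had 2 counts.

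Cell types known for class II were looked for with marker lists, whose part in the class II levels was not tested. The 5 B cell markers summed to between 0.241 and 0.686 TPM. Ms4a1 had 0 counts, and Cd79a and Cd79b were highest at 0.236 and 0.226 TPM in the mean. The 6 dendritic cell markers summed to between 0.284 and 0.418 TPM, led by Itgax and Zbtb46 at 0.146 and 0.0862 TPM, with Clec9a and Cd209a at 0 counts. The 6 macrophage markers summed to between 5.25 and 10.7 TPM, mostly Cd68 at 6.08 TPM, followed by Cd14 at 1.73 TPM, and Lyz2 had 3 counts, all in replicate 4. In replicates 1 to 4 the B cell sums were 0.462, 0.686, 0.241 and 0.587 TPM. The dendritic cell sums were 0.338, 0.418, 0.285 and 0.284 TPM, and the macrophage sums were 7.37, 10.7, 5.25 and 9.25 TPM. H2-Ab1 was highest in replicate 4 and lowest in replicate 3. In such bulk RNA, fewer cells of a type and less RNA per cell cannot be told apart.

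The spread between libraries was tested on all genes at once with edgeR's quasi-likelihood fit, which asked whether a gene varied beyond genes of like abundance. Of 12156 genes that passed the filter on low counts, 1 was called at an adjusted p of 0.05, a background of 0.00823%, and 596 had an unadjusted p under 0.05, a background of 4.90%. Of the 26 members that passed the filter, 0 were called and 6 had an unadjusted p under 0.05. These were H2-Ab1, H2-Q10, H2-Q7, H2-Q4, Tap1 and Tapbp, with Benjamini-Hochberg adjusted p of 0.425, 0.583, 0.806, 0.875, 0.907 and 0.925 in edgeR. In normalised CPM, a count scaled to library size, H2-Ab1 had a coefficient of variation of 71.3% over the 4 libraries and H2-Q10 of 114%. H2-T22 stood at the other end with 2.56%.

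The calls changed with the filter on low counts. With no filter on counts, edgeR called 126 of 21299 genes, a background of 0.592%, and 2 of 32 members. H2-Ab1 then had an adjusted p of 0.000316 and H2-Q10 of 0.0192. Without replicate 4, edgeR called 20 of 12145 genes, a background of 0.165%, and 628 had an unadjusted p under 0.05, a background of 5.17%. None of the 26 members was then called and 3 had an unadjusted p under 0.05, H2-Ab1, H2-Q4 and Tapbp, while H2-Q7 and H2-Q10 had an adjusted p of 0.996 and 0.995 in edgeR. With a mean count of at least 50, edgeR called 5 of 10643 genes, a background of 0.0470%, and no member was among them. DESeq2 marked 111 of 21299 genes as dispersion outliers, a background of 0.521%, and H2-Ab1 was the 1 member among them.

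**Figure D3:**
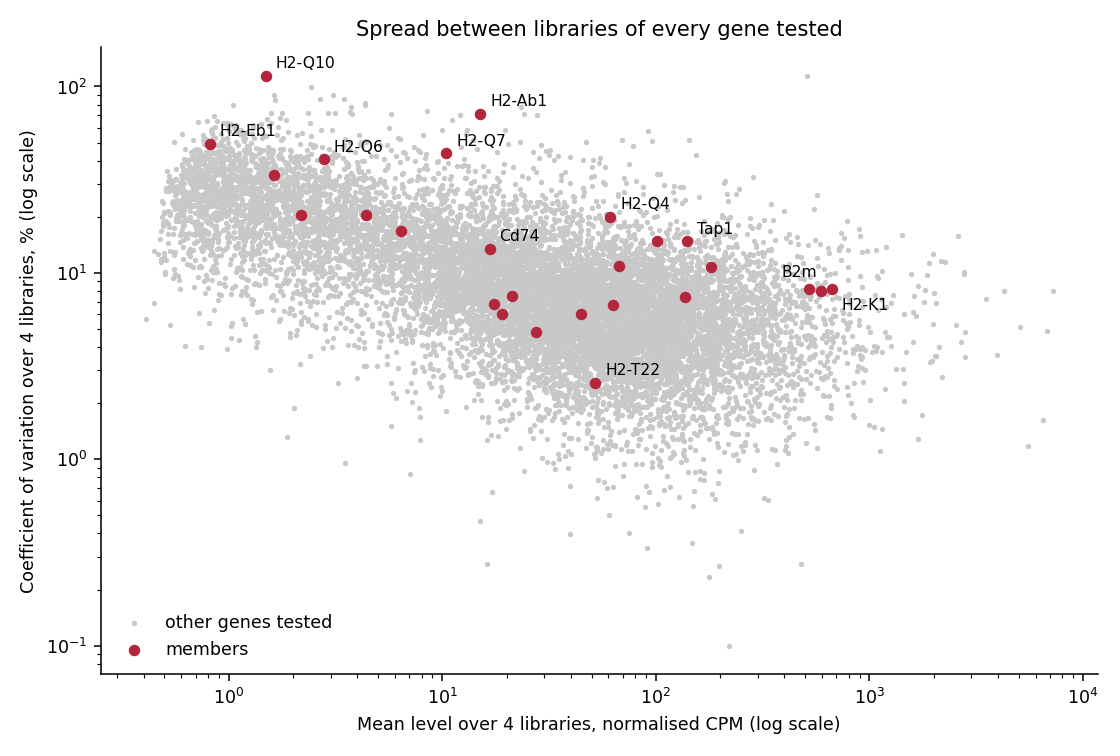
Coefficient of variation over the 4 libraries against mean normalised CPM (both axes log) for the 12156 genes tested, with the 26 members in red. H2-Ab1 at 71.3% and H2-Q10 at 114% lie along the upper edge of the cloud, and H2-T22 at 2.56% near its lower part.

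Replicate 4 was the highest library for 19 of the 26 members tested and replicate 3 the lowest for 18, and 13 showed both. Over all genes tested, 33.2% were highest in replicate 4, 34.2% were lowest in replicate 3 and 20.5% showed both. Of the 7 T cell markers, 5 had replicate 4 as the highest library, 5 had replicate 3 as the lowest and 4 had both. The Th17 markers went both ways in replicate 4. Il17a, Il17f and Ccl20 were lowest there, differing from the other 3 by -0.29, -0.20 and -0.45 on the log2(CPM + 1) scale. Rora, Il23r and Ccr6 were higher there than the mean of the other 3, by 0.26, 0.18 and 0.085. The median member was 0.20 higher in replicate 4 than the mean of the other 3 libraries on the log2(CPM + 1) scale, beside 0.0018 for all genes tested. That median near 0 does not make replicate 4 like the others over all genes. Pairs of libraries with replicate 4 had a chi-square per gene of 13.7 to 18.5, beside 3.33 to 7.28 for pairs without it. In replicate 3 the median member differed from the other 3 by -0.17, beside -0.0010 for all genes tested. The median coefficient of variation was 12.1% for the members and 7.91% for all genes tested, which differ in abundance. All 4 Q region genes tested were highest in replicate 4, with a median difference of 0.87, while H2-T22, H2-M3, Erap1, H2-Eb1 and H2-Ke6 were lower there than the mean of the other 3.

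**Figure D4:**
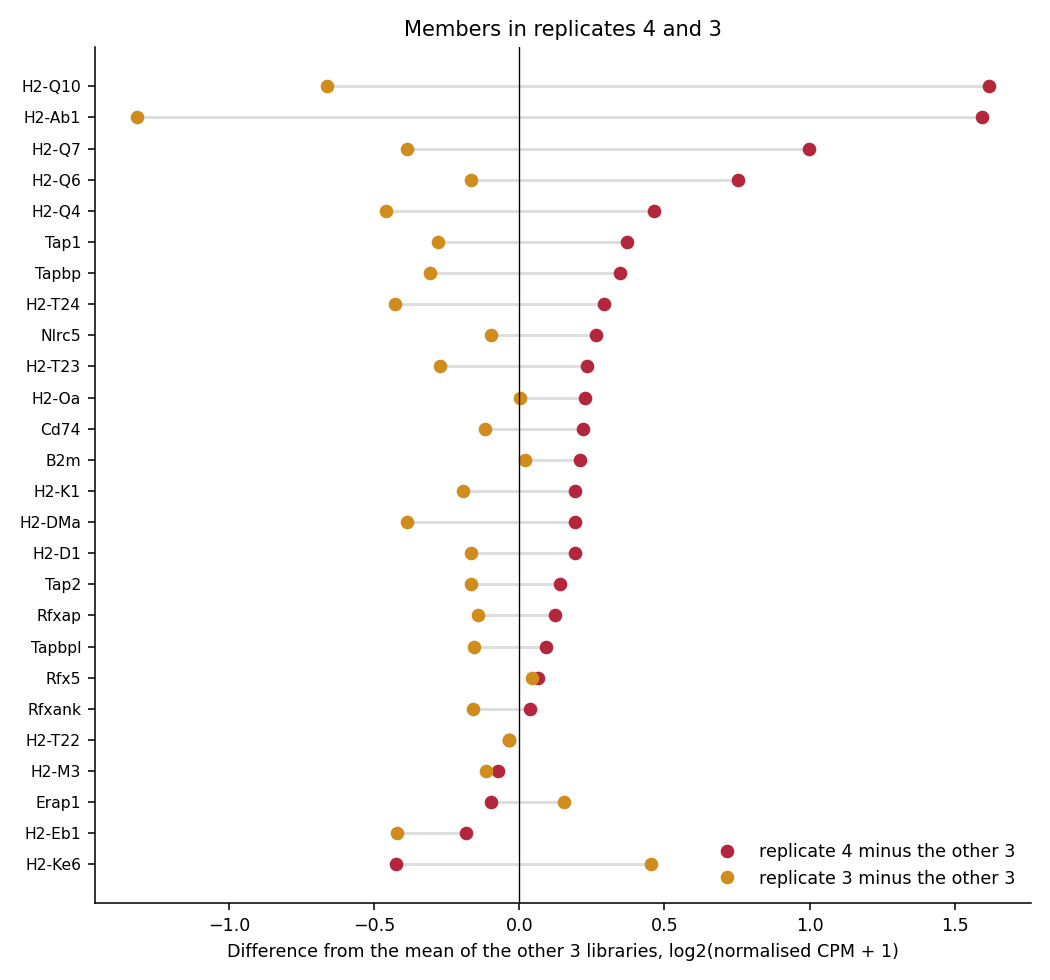
Difference of replicate 4 (red) and of replicate 3 (ochre) from the mean of the other 3 libraries, in log2(normalised CPM + 1), for the 26 members tested, ordered by the value in replicate 4. H2-Q10 and H2-Ab1 have the widest gaps, and 5 members at the bottom lie below 0 in replicate 4.

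The levels of genes that interferons raise are given beside the members' spread, in which their part was not tested. Of 12 such genes, 8 passed the filter; replicate 4 was the highest library for 7 of them and replicate 3 the lowest for 6. Their median differed by 1.05 in replicate 4 and by -0.79 in replicate 3 on the log2(CPM + 1) scale, with a median coefficient of variation of 67.2%. The summed level of all 12 was 385, 450, 377 and 496 TPM, most of it Bst2 at 293 TPM and Gbp2 at 94.6 TPM in the mean. Gbp2, an interferon-induced GTPase gene, had 79.0, 108, 63.0 and 128 TPM, while Bst2, or tetherin, had 285, 299, 298 and 289 TPM and did not follow that order. Of the 7 members whose promoter window held the interferon-type letters, H2-Q10, H2-Q7 and H2-Q6 differed by 1.62, 1.00 and 0.75 in replicate 4. H2-Q4 differed by 0.46, H2-K1 and H2-D1 by 0.19 each, and H2-M3 by -0.08. H2-Q10 rested on 22, 18, 5 and 117 counts. Of the matched members tested that lacked these letters, Tap1, Tapbp, H2-T23, H2-Oa, B2m and H2-DMa differed by 0.37, 0.35, 0.23, 0.23, 0.21 and 0.19. Rfx5 and Rfxank differed by 0.06 and 0.04, and H2-T22, Erap1, H2-Eb1 and H2-Ke6 by -0.04, -0.10, -0.18 and -0.43. The tested members with no matched window were H2-Ab1, H2-T24, Nlrc5, Cd74, Tap2, Rfxap and Tapbpl. They differed by 1.60, 0.29, 0.27, 0.22, 0.14, 0.12 and 0.09 in replicate 4, and whether they hold the letters was not seen. The part of the letters was not tested.

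Only reads that map once were counted, so reads from stretches shared with a copy are lost. Of the 46 members, 23 had every stretch of 100 bases in their annotated transcripts to themselves and 11 had under 90% to themselves. Cut to 50 bases, 8 members were wholly unique and 21 under 90%. H2-K1 and H2-D1 were 99.0% and 96.4% unique at 100 bases, and 90.4% and 87.2% at 50 bases. H2-T22 was the lowest class I chain, with 68.5% at 100 bases and 46.5% at 50. H2-Q6 had 87.0%, sharing most with H2-Q7, which had 88.0%, and H2-Q4 had 85.9%, so levels of the Q genes and the split between them are uncertain and set too low. H2-DMb1 and H2-DMb2 shared 11.3% and 10.28% of their stretches with each other. The measure also counts a gene that overlaps at the same place, as Nr2c2ap does for Rfxank, and no source used here gives the read length.

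Scaling lengths by these shares moved the mean of H2-T22 to 73.0 TPM, against 50.04 TPM with the full length. H2-Ke6, which carries the MHC prefix from its position but encodes the dehydrogenase HSD17B8, shared 85.4% of its exonic bases with the predicted gene Gm20427 on the same strand. It averaged 3.47 ± 1.13 TPM (SD, n = 4), a value that reads lost to this overlap set too low. The H2- genes of other annotated types, which are not members, numbered 11, of which 5 had a count. The pseudogene H2-T-ps had 121, 118, 91.1 and 131 TPM, H2-K2 had 19.99, 22.4, 17.7 and 34.9 TPM, and H2-T10 averaged 6.88 ± 0.220 TPM (SD, n = 4). Reads of such copies add to the class I transcripts of these cells and are outside the sums above.

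Along chromosome 17, which holds 37 of the members, high and low genes lay side by side. Tap1 and Tap2, at 83.6 and 118 TPM in the mean, lay between H2-DMb1 and H2-Ob, both below 1 TPM. H2-Aa at 0 counts lay between H2-Ab1 and H2-Eb1. H2-T22 and H2-T23 lay 4272 bases apart, and the next member along, H2-T3, had 0 counts, as did the H2-M10 genes beyond it. H2-M3 at 48.5 TPM stood between H2-M5 and H2-M2, both at 0 counts.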

How the data were processed

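The authors' deposited tables hold, for each gene, a whole-number count of read pairs and an exonic length, in 4 Th17 libraries. Per the file headers, they came from featureCounts 1.4.6-p4 on GENCODE mouse release 13 exons, reverse-stranded (option 2), without reads that map to several places or overlap several genes. The build is mm10 per the labels, and no source used here gives an aligner version. Symbols and gene types came from GENCODE release 21, in which 50376 identifiers were found. Totals ran from 9382661 to 34542693. TPM were computed from counts and lengths, with no correction for fragment length. Spread was tested in edgeR 4.0.16 (TMM, filterByExpr, intercept alone, quasi-dispersion over trend, upper tail of F, adjusted p of 0.05), with DESeq2 1.42.0 as an alternative. Pairs used a pseudocount of 1. Libraries of each pair differed beyond sampling noise, so all 4 were kept. The chi-square per gene was 3.33 to 7.28 in pairs without replicate 4 and 13.7 to 18.5 in pairs with it. Members and lists were chosen with earlier results of these data known. Members with a mean of at least 10 TPM, pair members and called members are named with each library's value, as are, chosen after their values were seen, H2-Q2 and H2-Q10 and some genes that are no members (H2-T-ps, H2-K2, Gbp2 and Bst2). Of the other pathway lists the 5 highest, those below 1 TPM and those called are named, and of marker and interferon lists the highest 2 and those at 0 counts. All Th17 markers are also named, for their differences in replicate 4. The value of 1 gene that this rule would name is not reported here. Alternatives changed the length, scaling, pseudocount, filter, tool and libraries used.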

Additional observations from a re-analysis of the deposited data

Results flagged for a closer look

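Of 44 values with 4 libraries each, 3 had 1 library far from the others by Dixon's criterion, which chance meets in about 1 of 20 groups. All 3 were Q region class I genes in replicate 4. H2-Q7 stood at 13.4 TPM there, with the other 3 libraries between 6.01 and 6.47 TPM. H2-Q10 stood at 3.07 TPM, with the others between 0.403 and 0.572 TPM. H2-Q2 stood at 2.30 TPM, with the others between 0.322 and 0.524 TPM. These genes share stretches of sequence, so the 3 values are not independent.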

How the results depend on the processing

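The 25 members at 1 TPM or more in every library stayed between 24 and 25 under each length, scaling, CPM and left-out library tried. The class I and class II sums moved by less than 1 SD under each length and scaling. For left-out libraries that measure cannot decide, since leaving out 1 of 4 values always moves a mean by less than 1 SD. Without replicate 4 the class II sum was 22.2 TPM in place of 32.5 TPM, and the class I sum was 1911 TPM in place of 1989 TPM. The median member level was 3.96 TPM, and became 4.82 TPM with exonic bases that no other gene covers and 5.14 TPM with lengths scaled by unique 100-base stretches, an alternative chosen after seeing the data. H2-Ke6, near the median, goes from 1533 to 224 bases in the first of these, while most members named at 10 TPM or more moved slightly down. In CPM, with no length correction, 4 differences changed sign: B2m minus H2-K1 to -0.35, B2m minus H2-D1 to -0.18, Tap1 minus Tap2 to 0.023 and Rfxap minus Rfx5 to -0.50. The other 8 pairs kept their sign under every alternative. The count of members called for spread was 0, but 2 without a filter and 1 in DESeq2; the cause was not tested. Leaving out each library left it at 0, while the genes called ran from 1 to 20, the highest without replicate 4. No pairing of samples across groups was possible because there is 1 group, while the gene pairs were compared within each library. Depth limits low members most in replicate 3, where 3 counts are 1.05 TPM at 1 kb. Transcript letters show no unannotated copies of a gene.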
